A study of Mus musculus with 4 samples.

Results

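The genes for legumain (Lgmn) and 7 cathepsins (Ctsb, Ctsd, Ctsh, Ctsk, Ctsl, Ctss and Ctsz) were followed through 4 Omni-ATAC-seq libraries of cultured mouse bone marrow cells, an assay in which a transposase inserts adapters into open chromatin. The 8 genes are members of the lysosomal protease family chosen by name, of 21887 protein-coding genes. Their loci were defined as the gene body with 20 kb on either side (mm10), and every called accessible interval that overlaps a locus was kept. Overlapping intervals of the 4 libraries were merged, giving 89 distinct regions in the 8 loci of 120423 regions in all. The libraries, 1 each, came from Cxcr3-/- monocytes, wild-type (WT) monocytes, Cxcr3-/- CMP/GMP (common myeloid progenitor and granulocyte-monocyte progenitor cells together) and WT CMP/GMP, all of strain C57BL/6J; values of all 4 are given below in that order. Cxcr3 encodes a chemokine receptor, and the study concerns CXCR3-expressing macrophages in liver cancer. Mice of both genotypes received diethylnitrosamine and tetrachloromethane to induce tumours in fibrotic liver, and the labels give hepatocellular carcinoma as disease state of all 4 samples. The design text describes the sequenced cells as cultured, and whether they came from treated mice is not stated. Age, and how Cxcr3 was inactivated, are not given in the sources used here. With 1 library per group no group has a replicate. The genotypes were not treated as replicates of a cell type, no test across samples was run and no p-value is given. Every printed interval is an exact 95% interval for counting error alone, and tags amplified by PCR are not independent molecules.

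Cathepsins and legumain break down protein in lysosomes and endosomes, and are made in large amounts by macrophages as these differentiate from monocytes. Most are cysteine proteases made as inactive proenzymes, cystatins inhibit them, and legumain, which cuts after asparagine, processes several cathepsins to their mature chains. Cathepsin S trims the invariant chain of MHC class II in antigen-presenting cells, and cathepsin K degrades bone collagen in osteoclasts, which share monocyte precursors. TFEB and its relatives TFE3, TFEC and MITF are transcription factors that bind a motif with the core CACGTG at many lysosomal genes.

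The lists held 78244 intervals in Cxcr3-/- monocytes, 98257 in WT monocytes, 80171 in Cxcr3-/- CMP/GMP and 69521 in WT CMP/GMP. Median pileups, the number of sequenced tags stacked at an interval's summit, were 21, 21, 29 and 21 tags in the same order. The depth of background was 97.2, 95.6, 194 and 134.6 tags per 10 kb. The labels were checked at marker loci. At 10 monocyte and macrophage genes, 17 of 106 regions were called in both monocyte libraries and in neither CMP/GMP library, near the 14.4% of all regions, and 4 showed the opposite, against 7.28% of all regions. Of their regions with a measured ratio, monocytes over CMP/GMP, 4 of 42 were 2-fold higher and 4 lower in Cxcr3-/-, against 10.9% and 9.77% of all regions. In WT, 6 of 40 were 2-fold higher and 1 lower, against 10.8% and 6.67% of all regions. At 8 stem and progenitor genes, 6 of 103 regions were monocyte-only and 14 CMP/GMP-only. At 10 granulocyte genes, Ctsg among them, the counts were 8 and 14 of 79, and at 4 mast cell and basophil genes 1 and 6 of 20. The loci of Ctsg and of the mast cell gene Mcpt8 share regions, among them the 1 monocyte-only region of the mast cell and basophil list. These 2 lists are therefore not independent of each other. Each of the 10 granulocyte loci held intervals, and their summed scaled pileup was 1171 and 1262 tags in Cxcr3-/- and WT monocytes against 2096 and 1970 tags in Cxcr3-/- and WT CMP/GMP. The 4 mast cell and basophil loci summed to 146 and 186 tags in Cxcr3-/- and WT monocytes, against 535 and 540 tags in Cxcr3-/- and WT CMP/GMP. Dendritic cell loci had 2 monocyte-only and 3 CMP/GMP-only regions of 39, and B cell loci 0 and 2 of 31. T and NK cell loci had 2 and 1 of 30, and erythroid loci 2 and 2 of 20. Of all these markers Cd8a alone had no interval. The part of such cells in the cathepsin results was not tested, and in bulk cells a larger share of open cells cannot be told apart from more opening per cell.

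More intervals lay at the protease loci in monocytes than in progenitors. The 8 loci held 64 intervals in Cxcr3-/- monocytes, 81 in WT monocytes, 55 in Cxcr3-/- CMP/GMP and 46 in WT CMP/GMP. When each list was cut to its best 69521 intervals by q-value, the counts were 57, 58, 48 and 46 in the same order, so the excess of WT over Cxcr3-/- monocytes lay in the weaker intervals of the longer WT list. Of the 89 regions, 36 (40.4%) were called in all 4 libraries, against 37% of all regions. A further 17 (19.1%) were called in both monocyte libraries and in neither CMP/GMP library, against 14.4% of all regions, and 4 (4.49%) in both CMP/GMP libraries and in neither monocyte library, against 7.28%. WT monocytes alone had 14 more (15.7%, against 12.5% of all regions), with pileups of 6 to 35 tags. These shares lie near those of all regions. The 17 monocyte-only regions carried 12 to 74 tags (median 22) in Cxcr3-/- monocytes and 13 to 114 tags (median 25) in WT monocytes, where all monocyte-only regions had medians of 16 and 20 tags. At accessibility equal to WT monocytes, they would have given 9.2 to 81.0 tags in WT CMP/GMP. Weaker ones at Lgmn (9.2 tags), Ctsb (11.4) and Ctsd (11.4) fall below the median called pileup of 21 tags there. In Cxcr3-/- CMP/GMP the same regions would have given 20.5, 24.9 and 27.9 tags, against a median of 29. For such regions a missing call does not by itself show lower accessibility in CMP/GMP.

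The 17 were spread over 5 of the 8 loci, with 6 at Ctsb, 5 at Lgmn, 3 at Ctsd, 2 at Ctsl and 1 at Ctsk. None lay at Ctsh, Ctss or Ctsz. Of all protein-coding genes with any region in their locus, 50.8% had such a region, at a median of 7 regions per locus against 12 for the 8 members, and 34.9% had a region called in CMP/GMP alone, as had 3 of the 8 members (Lgmn 1, Ctsb 1 and Ctsh 2). Inside the member genes lay 6 of the 17.

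**Figure D1:**
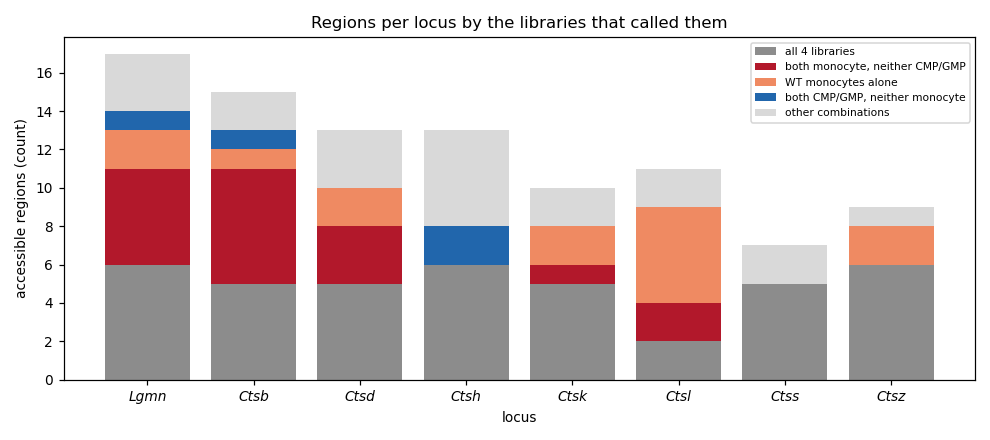
Accessible regions per locus (count, vertical axis) for the 8 genes (horizontal axis), stacked by the libraries that called them. Ctsb and Lgmn have 6 and 5 regions called in both monocyte libraries and in neither CMP/GMP library, while Ctsh, Ctss and Ctsz have none; the 6 regions that the Ctsk and Ctss loci share are counted under both.

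At 6 of the 8 genes the start was called in all 4 libraries. Ctsb and Ctsh, which had no annotated start here, are counted among them by their low-coordinate end. Pileups were scaled by dividing out depth factors of 0.879, 1.11, 1.29 and 0.791. Ctsl carried 122.8 and 99.6 scaled tags in Cxcr3-/- and WT monocytes against 112.4 and 123.8 tags in Cxcr3-/- and WT CMP/GMP. Over the low-coordinate end of Ctsh, which encodes an aminopeptidase, the values were 114.8 and 101.4 tags in monocytes and 104.7 and 108.7 tags in CMP/GMP, in the same genotype order. Counting intervals of the 4 libraries overlapped at Ctsl, Ctsh, Ctsb and Ctsz. At Lgmn, the start carried 100.1 and 107.7 tags in monocytes and 71.3 and 79.6 tags in CMP/GMP, with monocyte to CMP/GMP log2 ratios of 0.49 (0.05 to 0.93) in Cxcr3-/- and 0.44 (-0.02 to 0.90) in WT. Ctsd, the gene of the main aspartic protease of the lysosome, had 66.0 and 82.6 tags in monocytes and 48.8 and 41.7 tags in CMP/GMP. Its log2 ratio was 0.43 (-0.11 to 0.97) in Cxcr3-/- and 0.99 (0.40 to 1.61) in WT. Both monocyte values thus stood above both CMP/GMP values at Lgmn and Ctsd, beyond counting error in 1 genotype each. Ctss, the weakest start with a call, had 25.0 and 34.1 tags in monocytes, no call in Cxcr3-/- CMP/GMP and 19.0 tags in WT CMP/GMP. The start of Ctsk was called in no library; a weak interval of 13 tags, starting 373 bp into the gene, was called in WT monocytes alone.

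**Figure D2:**
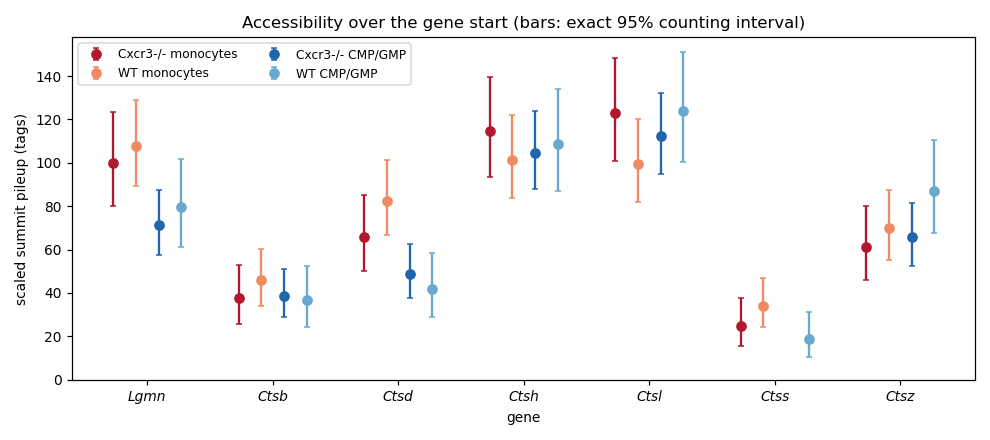
Scaled summit pileup (tags, vertical axis) of the region over the annotated start of each gene, or over the low-coordinate end for Ctsb and Ctsh, by library; bars are exact 95% counting intervals. The 4 libraries overlap at Ctsl and Ctsh near 100 to 124 tags, Ctss is lowest, and Ctsk has no region there and is not drawn.

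The promoter windows of 5 members, from 250 bases before to 50 after the annotated start, are printed here because these starts run from strongly called to uncalled. RefSeq windows (GRCm38.p6, the build behind mm10) were found for 6 of the 8 members, 7 windows in all since Lgmn has 2 starts. Capitals mark, on either strand, the E-box core CACGTG, the PU.1-type core GAGGAA, the C/EBP-type motif TTGCNNAA and the GC box GGGCGG; the AP-1 motif TGANTCA was also searched and is in none of the 7. The first 3 lines are starts open in all 4 libraries, and the last 2 are the weakly called and the uncalled start.
Ctsd, chr7:142387778-142388077, minus strand: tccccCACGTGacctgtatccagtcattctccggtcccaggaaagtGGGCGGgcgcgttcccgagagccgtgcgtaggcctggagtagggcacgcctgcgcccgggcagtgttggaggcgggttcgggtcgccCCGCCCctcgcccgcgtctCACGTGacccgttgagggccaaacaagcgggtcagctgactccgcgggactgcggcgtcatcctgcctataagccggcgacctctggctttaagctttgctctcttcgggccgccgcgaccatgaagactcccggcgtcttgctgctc
Lgmn, chr12:102439679-102439978, minus strand: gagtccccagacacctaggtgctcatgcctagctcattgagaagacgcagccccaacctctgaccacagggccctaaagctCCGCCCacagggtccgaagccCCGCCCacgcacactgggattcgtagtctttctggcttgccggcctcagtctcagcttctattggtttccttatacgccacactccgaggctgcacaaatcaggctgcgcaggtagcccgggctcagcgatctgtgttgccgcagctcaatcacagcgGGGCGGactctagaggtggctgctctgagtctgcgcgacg
Ctsl, chr13:64370471-64370770, minus strand: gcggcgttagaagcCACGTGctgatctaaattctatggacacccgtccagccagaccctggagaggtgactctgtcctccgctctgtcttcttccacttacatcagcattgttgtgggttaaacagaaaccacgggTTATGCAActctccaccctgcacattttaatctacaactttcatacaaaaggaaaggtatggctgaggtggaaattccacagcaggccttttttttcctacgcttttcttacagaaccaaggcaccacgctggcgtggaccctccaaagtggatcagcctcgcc
Ctss, chr3:95526536-95526835, plus strand: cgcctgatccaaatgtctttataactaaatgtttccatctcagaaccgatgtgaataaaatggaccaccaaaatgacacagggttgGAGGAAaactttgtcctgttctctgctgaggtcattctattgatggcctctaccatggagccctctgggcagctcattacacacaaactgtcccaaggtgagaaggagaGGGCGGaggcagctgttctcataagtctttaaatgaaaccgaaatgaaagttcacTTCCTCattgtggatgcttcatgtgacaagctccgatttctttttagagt
Ctsk, chr3:95498960-95499259, plus strand: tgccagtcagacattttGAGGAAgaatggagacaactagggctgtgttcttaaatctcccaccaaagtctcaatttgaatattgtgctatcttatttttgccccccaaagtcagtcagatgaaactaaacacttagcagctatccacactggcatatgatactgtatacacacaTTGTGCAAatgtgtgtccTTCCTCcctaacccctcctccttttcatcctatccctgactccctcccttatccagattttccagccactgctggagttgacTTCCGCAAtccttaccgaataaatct

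CpG dinucleotides numbered 33 in the Ctsd window, 18 in the Lgmn window, 12 at Ctsz and 10 at Ctsl, but 5 at Ctss and 2 at Ctsk. Over all 32851 windows, 72.1% of those with at least 10 CpG and 6.04% of those with 5 or fewer lay over a region called in all 4 libraries. Ctsd holds CACGTG 245 and 98 bases before its start, and Ctsl holds it 236 bases before. Lgmn has it 49 bases before its second start, in a window (chr12:102439043-102439342) that no called region overlapped. CACGTG was thus in 3 of the 7 windows, against 7.15% of all windows. Among windows with at least 10 CpG, those with CACGTG were open in all 4 libraries in 76.9% and those without it in 71.6%. GAGGAA was in the Ctss and Ctsk windows only, against 28.3% of all windows. TTGCNNAA was in Ctsk and Ctsl (10.8% of all), GGGCGG in 4 windows, those of Ctsd, Ctss, Ctsz and the first Lgmn start (35.7% of all), and TGANTCA is in 7.81% of all windows. A match describes letters and is not evidence of binding.

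Monocytes against CMP/GMP was the comparison with the widest differences. The largest lay inside the genes or beside them, away from the starts. Lgmn, Ctsd and Ctsh each had a strong region called in both monocyte libraries that neither CMP/GMP library called, or, at Ctsh, that 1 of them called weakly. Ratios were read for regions that both libraries of a pair called and whose pileups averaged 30 tags or more, unless said otherwise. In Cxcr3-/- cells, 31 member regions qualified, with a median log2 ratio of 0.16 (range -0.48 to 3.66) against -0.10 over all 29544 regions. In WT cells, 28 qualified, with a median of 0.42 (-0.59 to 1.78) against 0.03 over all 25520 regions. Above 2-fold higher in monocytes were 3 of 31 in Cxcr3-/- (10.9% of all regions) and 4 of 28 in WT (10.8% of all), and 2-fold lower were 0 of 31 (9.77% of all) and 0 of 28 (6.67% of all). Without a minimum pileup, 3 of 40 were 2-fold lower in WT, 2 weak regions at Ctsl and 1 at Ctsz. Of 27 member regions with a ratio in both genotypes, 15 lay above 0 in both, against 35.8% of all regions. Below 0 in both lay 5, for which the share over all regions was not counted. At Ctsd, 1 was more than 2-fold higher in both, against 6.72% of all regions. The balance depends on the scaling: by background tags every cell-type ratio is 0.44 higher in Cxcr3-/- and 0.99 higher in WT. Then 8 of 31 and 21 of 28 member regions are 2-fold higher, with 20.4% and 51.4% of all regions. Above 0 lie 27 of 31 and 28 of 28, so that most ratios given below as negative turn positive. The medians of all regions are then 0.34 in Cxcr3-/- and 1.02 in WT, and the share of all regions above 0 was not counted. Relative to the median of all regions, the member median was 0.26 higher in Cxcr3-/- and 0.38 higher in WT. The choice of scaling cannot change this gap, because it shifts all ratios of a comparison alike. The 4 comparisons share libraries in pairs and are not independent of each other.

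At Lgmn, the asparaginyl endopeptidase gene (chromosome 12, 102394082 to 102439728), 17 regions were called. The strongest monocyte-only region lay within the gene, 12345 bp from the nearest annotated start, from 102426345 to 102426747, with 74 tags in Cxcr3-/- monocytes, 114 tags in WT monocytes and no call in either CMP/GMP library. It ranked 3300 by q-value in Cxcr3-/- monocytes and 1134 in WT monocytes, and equal accessibility would have given 108.5 and 81.0 tags in Cxcr3-/- and WT CMP/GMP. Another region near the far end of the gene, 102394476 to 102394773, had 34 and 62 tags in Cxcr3-/- and WT monocytes and again no call in CMP/GMP. These regions were present in monocytes of both genotypes, and their genotype ratios of -0.28 and -0.53 had counting intervals that included 0. Between them, the region 102417699 to 102418034 was called in all 4 libraries, with 31, 53, 24 and 11 tags in Cxcr3-/- monocytes, WT monocytes, Cxcr3-/- CMP/GMP and WT CMP/GMP. In WT, monocytes stood above CMP/GMP by a log2 ratio of 1.78 (0.82 to 2.86). In Cxcr3-/- it was 0.92, at a mean pileup under 30 tags. Upstream of the start, 3 regions called in all 4 libraries had ratios between -0.47 and 0.23 in Cxcr3-/- and between 0.40 and 0.62 in WT. Past the far end of Lgmn, 2 weak monocyte-only regions lay in the neighbouring gene Rin3. They had 14 to 25 tags in Cxcr3-/- and 13 to 18 tags in WT monocytes.

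Ctsd (chromosome 7, 142375910 to 142387827) had its strongest monocyte-only region in the body of its neighbour Ifitm10, 12480 bp beyond the low-coordinate end of Ctsd. This region, 142363108 to 142363430, carried 65 tags in Cxcr3-/- monocytes and 82 tags in WT monocytes, and neither CMP/GMP library had a call. Equal accessibility would have given 95.3 and 58.3 tags in Cxcr3-/- and WT CMP/GMP. Which of the 2 genes it belongs to was not measured. On the other side, upstream of the Ctsd start, 6 regions formed a row, the farthest 15823 bp from the start. At 10174 bp the region 142398001 to 142398361 had 57, 70, 40 and 22 tags in the library order above, with log2 ratios of 1.06 (0.46 to 1.68) in Cxcr3-/- and 1.18 (0.47 to 1.94) in WT. It was the 1 member region past 2-fold in both genotypes. The region 142393101 to 142393439 had 43 and 63 tags in Cxcr3-/- and WT monocytes and 28 tags in Cxcr3-/- CMP/GMP, a ratio of 1.17 (0.45 to 1.91), with no call in WT CMP/GMP. Over all Ctsd regions with a measured ratio, the cell-type ratios lay between 0.01 and 1.17 in Cxcr3-/- (6 regions) and between 0.38 and 1.18 in WT (5 regions). The upstream region 142394353 to 142394519 had no ratio in either genotype. It had 33 tags in Cxcr3-/- CMP/GMP and no call in Cxcr3-/- monocytes, but 46 tags in WT monocytes and no call in WT CMP/GMP.

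At Ctsh (chromosome 9, 90054267 to 90076095) the widest difference between cell types lay in 1 region inside the gene, 90067388 to 90067743. It held 138 tags in Cxcr3-/- monocytes, 126 in WT monocytes and 16 in Cxcr3-/- CMP/GMP, with no call in WT CMP/GMP, where equal accessibility would have given 89.5 tags. The Cxcr3-/- log2 ratio of 3.66 (2.91 to 4.51) was the largest among the member regions, and the region ranked 358 in the Cxcr3-/- and 1101 in the WT monocyte list by q-value. A region 19921 bp before the low-coordinate end, 90033773 to 90034346, was open in all 4 libraries with 153, 127, 116 and 60 tags, and ratios of 0.95 (0.59 to 1.31) in Cxcr3-/- and 0.59 (0.13 to 1.06) in WT. It lies at the edge of the locus. The end of the gene itself did not differ by more than counting error, with ratios of 0.13 in Cxcr3-/- and -0.10 in WT. Around 6 kb into the gene, 2 adjoining regions ran the other way, with ratios of -0.45 and -0.38 in Cxcr3-/- and -0.66 (mean pileup under 30 tags) and -0.59 in WT, all with counting intervals that include 0. Past the far end, 2 weak regions were called in CMP/GMP alone, with 29 and 15 tags in Cxcr3-/- and 16 and 11 tags in WT.

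**Figure D3:**
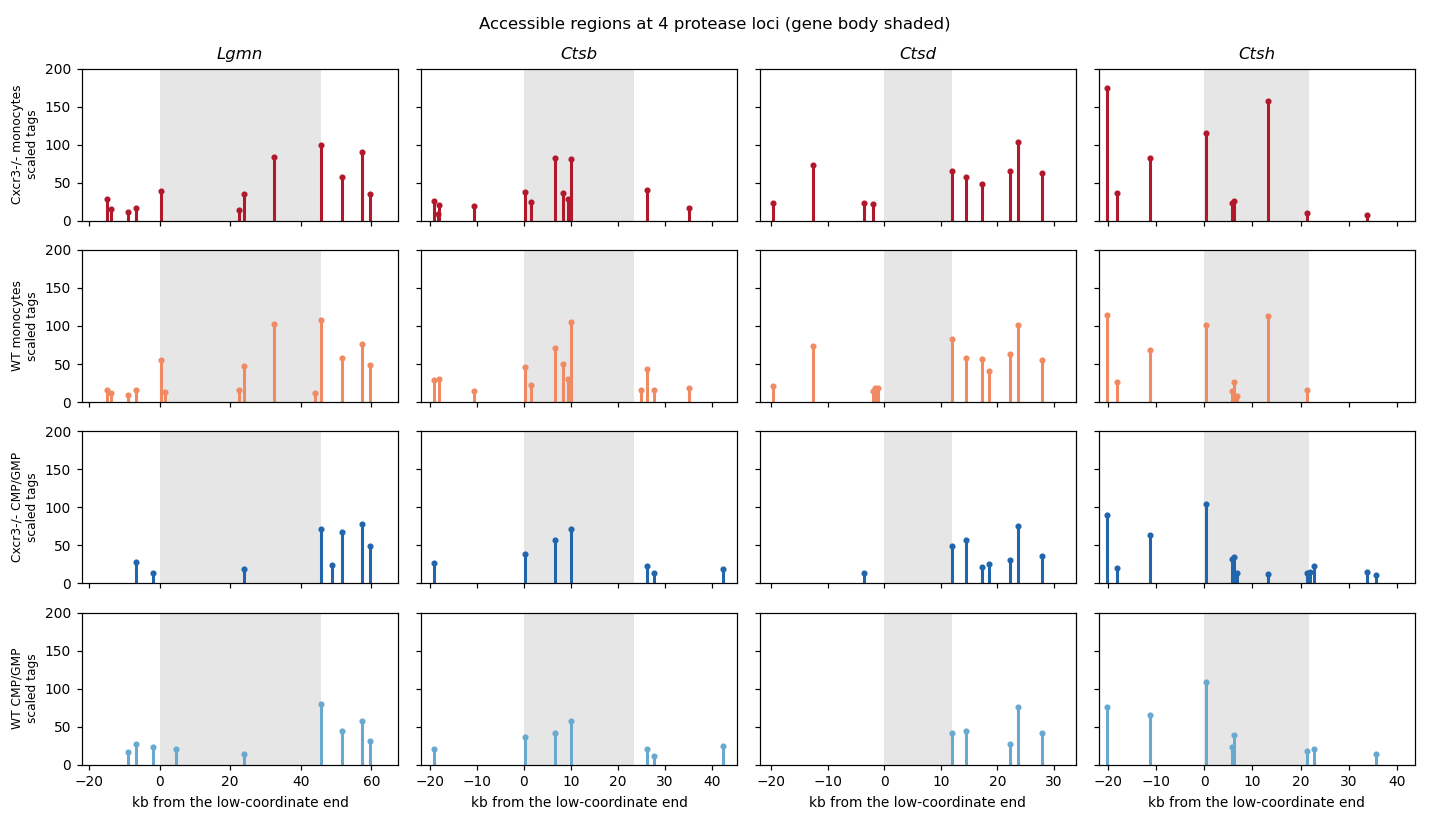
Scaled summit pileup (tags, vertical axis) of each called region against its distance from the gene's low-coordinate end (kb, horizontal axis) at Lgmn, Ctsb, Ctsd and Ctsh, 1 row per library, gene body shaded. The tall bars inside Lgmn and Ctsh in the monocyte rows (74 and 138 tags in Cxcr3-/-, 114 and 126 tags in WT before scaling) are absent or low in the CMP/GMP rows.

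Ctsb (chromosome 14, 63122462 to 63145923), which encodes a protease with both endopeptidase and dipeptide-removing activity, had the most monocyte-only regions, but weaker ones. The strongest of the 6, within the gene from 63130754 to 63130925, had 32 and 55 tags in Cxcr3-/- and WT monocytes, and the others had 15 to 25 tags in Cxcr3-/- and 16 to 34 tags in WT monocytes. Equal accessibility would have given 46.9 and 39.1 tags for the strongest in Cxcr3-/- and WT CMP/GMP. Around them, within 10 kb of the low-coordinate end, the regions 63128740 to 63129403 and 63132258 to 63132735 were called in all 4 libraries. The one nearer the end had 73, 79, 73 and 33 tags, with ratios of 0.55 (0.06 to 1.04) in Cxcr3-/- and 0.77 (0.16 to 1.40) in WT. The other had 71, 118, 93 and 46 tags, with ratios of 0.16 in Cxcr3-/-, where the interval includes 0, and 0.87 (0.36 to 1.39) in WT. Past the far end, in the cholesterol synthesis gene Fdft1, the region 63148453 to 63148889 had 35, 49, 30 and 16 tags and ratios of 0.77 (0.03 to 1.53) in Cxcr3-/- and 1.12 (0.28 to 2.04) in WT.

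Ctsk (95499210 to 95509387) and Ctss (95526786 to 95556405) are neighbours on chromosome 3, and 6 of their regions belong to both loci. Between the genes, 2402 bp past the end of Ctsk, the region 95511789 to 95512164 had the highest pileups of either locus in all libraries but WT CMP/GMP, with 76 tags in Cxcr3-/- monocytes, 108 in WT monocytes, 67 in Cxcr3-/- CMP/GMP and 32 in WT CMP/GMP. Its ratios were 0.73 (0.24 to 1.23) in Cxcr3-/- and 1.26 (0.68 to 1.88) in WT. The other 3 intergenic regions called in all 4 libraries had ratios between -0.26 and -0.03 in Cxcr3-/- and between 0.05 and 0.92 in WT, the highest of these at a mean pileup under 30 tags. Within Ctss, the region 95529728 to 95530282, 2942 bp past the start, had 39, 66, 29 and 37 tags, and its ratio was 0.98 (0.25 to 1.73) in Cxcr3-/- and 0.34 in WT, where the interval includes 0. No interval was called further along the gene, which ends at 95556405. The body of Ctsk held no interval other than the weak one in WT monocytes, and its 1 monocyte-only region, with 26 and 44 tags in Cxcr3-/- and WT monocytes, lay 19779 bp before the start in the gene Arnt.

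Ctsl and Ctsz had the locus sums closest between cell types. Ctsl (chromosome 13, 64361890 to 64370772), the gene of another broadly expressed cysteine endopeptidase, had 11 regions, of which 2 were called in all 4 libraries and 5, of 6 to 16 tags, in WT monocytes alone. Its strong start had ratios of 0.13 in Cxcr3-/- and -0.31 in WT, both with intervals that include 0. A region inside the gene, 64364333 to 64364568, had no call in Cxcr3-/- monocytes and 14 tags in WT monocytes, against 41 and 22 tags in Cxcr3-/- and WT CMP/GMP. Ctsz (chromosome 2, 174427494 to 174439039), which encodes a carboxypeptidase, had 6 of its 9 regions called in all 4 libraries. From 2440 bp inside the gene to 395 bp before the start, 4 regions in a row had ratios between -0.48 and 0.49 in Cxcr3-/- and between -0.32 and 0.51 in WT. Of these, the regions 174437408 to 174438067 and 174439434 to 174440137 stood at -0.47 (-0.94 to -0.01) and -0.48 (-0.95 to -0.03) in Cxcr3-/-. They were the 2 of 31 member regions with an interval wholly below 0, against 23.9% of all regions. In WT, 0 of 28 had such an interval, against 17.4% of all regions. Intervals wholly above 0 numbered 11 of 31 in Cxcr3-/- and 8 of 28 in WT, against 20.4% and 20.7% of all regions. A weak region in the neighbouring gene Tubb1, 174453776 to 174453987, had 11, 10, 23 and 23 tags, with ratios of -0.51 (-1.70 to 0.58) in Cxcr3-/- and -1.69 (-2.93 to -0.57) in WT at mean pileups under 30 tags. The summed scaled pileup of the Ctsz locus was 366.2 and 420.1 tags in Cxcr3-/- and WT monocytes, against 424.9 and 432.1 tags in Cxcr3-/- and WT CMP/GMP. In sum over each locus, the monocyte to CMP/GMP log2 ratio in Cxcr3-/- was 0.81 at Ctsd, 0.76 at Ctsb, 0.60 at Lgmn, 0.50 at Ctsh, 0.46 at Ctsk, 0.38 at Ctss, 0.15 at Ctsl and -0.21 at Ctsz. In WT the order was Ctsd (1.39), Ctsb (1.22), Ctsk (1.10), Lgmn (0.91), Ctss (0.75), Ctsh (0.42), Ctsl (0.40) and Ctsz (-0.04). These sums count an uncalled region as 0 and so move with the number of calls.

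**Figure D4:**
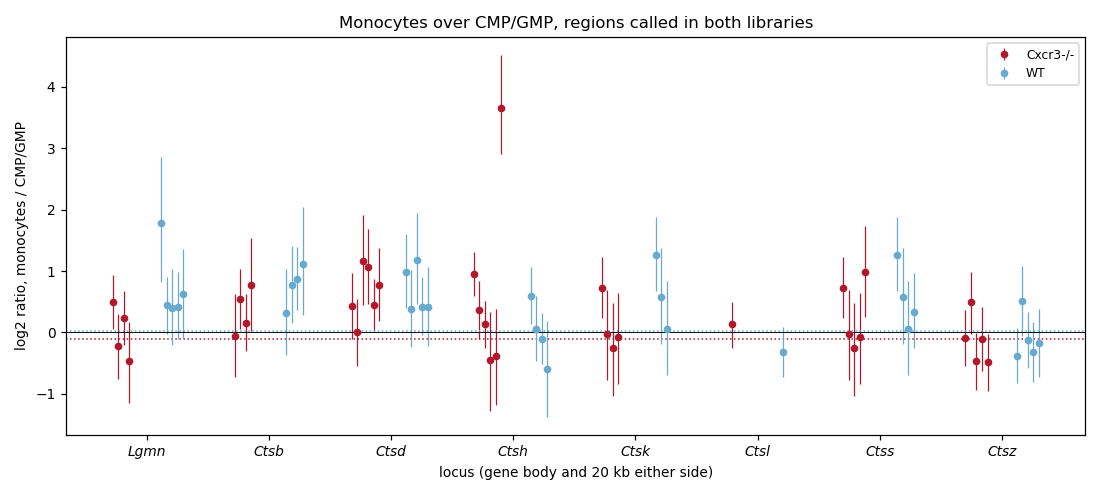
Log2 ratio of scaled pileups, monocytes over CMP/GMP (vertical axis), for each region called in both libraries at each locus (horizontal axis), in Cxcr3-/- and WT; bars are exact 95% counting intervals and dotted lines the medians of all regions (-0.10 in Cxcr3-/- and 0.03 in WT). A single Ctsh region stands at 3.66 in Cxcr3-/-, the Ctsd points lie at or above 0, and the Ctsz points lie on both sides of 0.

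Cxcr3-/- against WT gave small differences at these genes in both cell types. In monocytes, 37 member regions had a median log2 ratio of -0.14 (range -0.53 to 0.61), against 0.00 over all 30652 regions, and 0 were 2-fold higher (0.264% of all regions) or 2-fold lower (0.401% of all). The sign of that median depends on the minimum pileup: it was 0.04 with a minimum of 60 tags and -0.02 with none. In CMP/GMP, 28 member regions had a median of 0.12 (-1.06 to 0.63), against 0.05 over all 29451 regions, with 0 more than 2-fold higher (0.139% of all) and 1 more than 2-fold lower (0.136% of all). Scaling by background tags shifts every ratio by -0.36 in monocytes and by 0.18 in CMP/GMP. The typical half-width of a counting interval was 0.53 in monocytes and 0.60 in CMP/GMP (medians over the member regions, on the log2 scale).

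In monocytes the Ctsh regions lay together on the Cxcr3-/- side, all 5 between 0.18 and 0.61. By background tags 3 of the 37 member regions are above 0, all of them at Ctsh. The median of all regions is then -0.36, and the share of all regions above 0 was not counted. The 2 whose intervals left out 0 were the region at the edge of the locus, at 0.61 (0.26 to 0.96), and the region inside the gene, at 0.47 (0.11 to 0.83). These were 2 of 37 member regions, while 6.0% of all regions had an interval above 0. At Lgmn (-0.53 to 0.25, 7 regions), Ctsb (-0.44 to 0.23, 5 regions), Ctsk (-0.45 to -0.15, 6 regions) and Ctss (-0.45 to -0.15, 6 regions, 5 of them shared with Ctsk) the medians were -0.28, -0.29, -0.36 and -0.36, and each interval included 0. Gene density differs between these loci. Ctsh has 8 protein-coding genes in the 1 Mb around it, and all regions with a like count had a median of 0.07; Lgmn and Ctsb have 16 each (median -0.08), and Ctsk and Ctss 40 and 39 (median -0.22 each). Ctsd, with 28 genes (median -0.16), had a median of 0.01 over 7 regions. Of the loci with 10 genes (median 0.04), Ctsz had a median of -0.02 over 5 regions and Ctsl 1 region at 0.30. The part of gene density in the ratios was not tested.

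In CMP/GMP the region past 2-fold was that inside Ctss, 95529728 to 95530282, with 29 tags in Cxcr3-/- against 37 tags in WT, a log2 ratio of -1.06 (-1.81 to -0.32). It is no longer past 2-fold when scaled by background tags, and a minimum of 60 tags leaves it out. The same region stood at -0.42 in monocytes, with an interval that includes 0. Above 0 with intervals that left out 0 were a region 5725 bp upstream of the Lgmn start, at 0.61 (0.03 to 1.22, 87 against 35 tags), and one 395 bp upstream of Ctsz, at 0.54 (0.06 to 1.03, 123 against 52 tags). Intervals wholly above 0 numbered 2 of 28 member regions, and wholly below 0 1 of 28, against 2.7% and 1.9% of all regions.

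**Figure D5:**
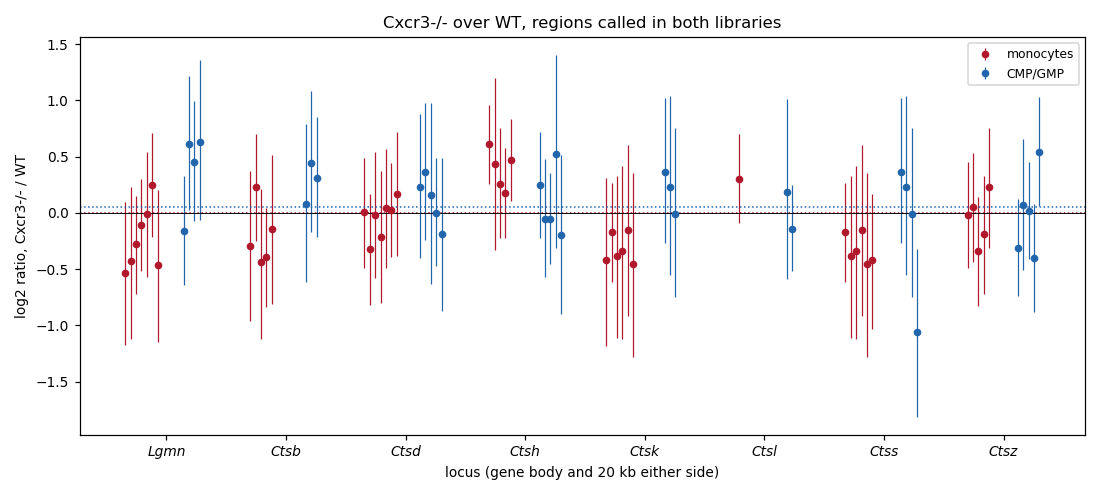
Log2 ratio of scaled pileups, Cxcr3-/- over WT (vertical axis), for each region called in both libraries at each locus (horizontal axis), in monocytes and in CMP/GMP; bars are exact 95% counting intervals and dotted lines the medians of all regions (0.00 in monocytes and 0.05 in CMP/GMP). The 5 Ctsh points in monocytes lie above 0, and in CMP/GMP a single Ctss region lies at -1.06.

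The other genes of the pathway showed differences in both directions between cell types. Of all 21887 protein-coding genes, 18113 had a region in their locus. Among 15 other cathepsin genes, 6 (Cts3, Cts6, Cts7, Ctsm, Ctsq and Ctsr, of the placental cathepsin cluster) had no interval in their locus in any library. The list had median log2 ratios, monocytes over CMP/GMP, of -0.48 over 27 regions in Cxcr3-/- and 0.09 over 24 in WT. In Cxcr3-/-, 3 regions were 2-fold higher and 7 lower, against 10.9% and 9.77% of all regions. In WT, 3 were 2-fold higher and 5 lower, against 10.8% and 6.67% of all regions. Its loci held 13 monocyte-only and 2 CMP/GMP-only regions of 66, against 14.4% and 7.28% of all regions. The first kind lay at Ctsa, Ctsc, Ctsg, Ctso and Ctsw, and the second at Ctsg. Ctsc, whose product activates granule serine proteases, had a monocyte-only region with 83 and 78 tags in Cxcr3-/- and WT monocytes and another region with 70, 87, 24 and 16 tags in the library order above (log2 ratios 2.10 in Cxcr3-/- and 1.95 in WT). Ctsg, a serine protease gene of neutrophil granules, had a region with 20, 22, 87 and 62 tags (-1.57 and -1.99) that also lies at the mast cell protease gene Mcpt8, and Ctso one with 15, 16, 66 and 51 tags (-1.58 and -2.17). Ctse had a region in each direction (1.60 and 1.80, and -1.63 and -1.49).

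Cystatin loci, 16 in number, held 7 monocyte-only and 3 CMP/GMP-only regions of 36, against 14.4% and 7.28% of all regions. Of the 16 loci, 7 had no interval, while 18113 of all 21887 protein-coding genes had a region in their locus. The cystatin medians were -0.14 over 12 regions in Cxcr3-/- and -0.36 over 11 in WT, and those of the 4 regulators 0.00 over 21 and 0.35 over 20. The monocyte-only regions lay at Cst3, Cst7, Cstb, Cst9 and Cst11, with 56 and 50 tags in Cxcr3-/- and WT monocytes for the strongest at Cst3, the gene of cystatin C, and the CMP/GMP-only regions at Cst6, Cst7 and Cstb. The neighbouring loci of Cst3 and Cst9 share a monocyte-only region. A region in the Cst11 locus had 192 and 131 tags in Cxcr3-/- and WT monocytes against 36 and 21 tags in Cxcr3-/- and WT CMP/GMP (2.97 and 2.15). Cst7, which encodes cystatin F, had one with 34 and 44 against 105 and 81 tags (-1.07 and -1.37). Together, the loci of the 4 regulators held 17 monocyte-only and 4 CMP/GMP-only regions of 73, against 14.4% and 7.28% of all regions. Of the 37 regions at Mitf, 12 were monocyte-only, the strongest with 59 tags in each monocyte library. Tfeb and Tfec had 2 monocyte-only regions each and Tfe3 1. CMP/GMP-only regions numbered 1 each at Mitf and Tfeb and 2 at Tfec. Regions 2-fold higher in monocytes of both genotypes lay at Tfec (1.96 and 1.27) and Mitf (1.12 and 1.28). Neither genotype comparison had a region past 2-fold in these 3 lists.

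Summed over their loci and centred on their own mean, the 8 members had a median log2 profile of 0.23 in Cxcr3-/- monocytes, 0.46 in WT monocytes, -0.28 in Cxcr3-/- CMP/GMP and -0.42 in WT CMP/GMP. Lgmn was nearest to it, with a Euclidean distance of 0.08 over the 4 libraries, and Ctsz farthest at 0.83. Among 16730 genes compared, the non-members with the most similar profile were Pilra (0.011), Tmcc3 (0.026), Slamf8 (0.029), Cbs (0.041) and Depdc5 (0.048), and 70 genes lay within 0.1.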

How the data were processed

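Omni-ATAC-seq libraries, 1 per group, were grouped by their labels; the 8 members and all lists were chosen with earlier results of these data known. The submitters' processing notes list Trim Galore, Bowtie2, SAMtools and the build mm10. No source used here names the caller of the intervals, or says whether sequencing duplicates, which the labels' protocols mention, were combined. The deposited score of each interval was not used. The deposited fold enrichment was read as the ratio of summit pileup to expected background, and the deposited −log10 p and −log10 q as those of the summit; no header states this, and all are the authors' values for each interval. Column 10 was read as the summit offset.

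From fold and −log10 p the whole-number pileup was recovered (Poisson background, 1 added tag, tolerance 0.001) for all but 0, 1, 3 and 0 intervals of Cxcr3-/- monocytes, WT monocytes, Cxcr3-/- CMP/GMP and WT CMP/GMP, which were left out. Intervals sharing 1 base were merged, with the highest pileup per library. Scaling factors were the median pileups over 44588 regions called in all 4 libraries, divided by their geometric mean; the alternative used background tags per 10 kb instead. Log2 ratios carry exact 95% Clopper-Pearson intervals, which cover counting error only. All members were named; of the other lists, those with a region called in 1 cell type alone or past 2-fold in both genotypes. Region sequences away from starts were not used here. Scripts (Python 3.11.15, scipy 1.17.1) were tested on simulated data.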

Additional observations from a re-analysis of the deposited data

How the results depend on the processing

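No paired analysis was possible because the labels give no replicate numbers to pair by, with 1 library per group. A fit with the cell types paired by genotype was not run; the ratios within each genotype are given side by side. Alternatives gave 96 values for 14 results, of which 74 stayed within the tolerance (1.5-fold for counts; for medians the counting error of the summed pileups), 21 moved and 1 changed sign; smaller flanks and the larger minimum leave fewer regions, and otherwise the cause was not tested. Stricter q (at least 5 on the −log10 scale), equal-length lists, and partners set by summits within 250 bp or 50% reciprocal overlap moved none. With 10 kb flanks, monocyte-only regions numbered 9 and CMP/GMP-only regions 2, and with gene bodies alone 6 and 0. Gene bodies alone also left 1 region 2-fold higher in monocytes in each genotype (1 in Cxcr3-/- and 1 in WT), and a Cxcr3-/- to WT median in monocytes of -0.29. Without a minimum pileup that median was -0.02, 1 region was 2-fold higher in Cxcr3-/- monocytes than in WT monocytes, and 3 regions were 2-fold lower in WT monocytes than in WT CMP/GMP. With a minimum of 60 tags the monocyte genotype median turned to 0.04, the CMP/GMP genotype median was 0.00 with 0 regions 2-fold lower, and 1 region in each genotype was 2-fold higher in monocytes. Scaling by background tags shifted all regions alike: the cell-type medians were 0.61 in Cxcr3-/- and 1.41 in WT, with 8 and 21 regions 2-fold higher, and the genotype medians were -0.51 in monocytes and 0.30 in CMP/GMP, with 0 regions 2-fold lower in CMP/GMP. At pileups near 30 tags a single region is measured coarsely, and a region without a call is below the caller's threshold, not closed.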
